A study of Mus musculus with 27 samples.

Results

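Of 27 mouse prostate tumours, 4 carried far more Hoxb3 mRNA than the rest, and these 4 are described here against the other 23. The tumours came from transgene-positive F2 males of a cross between C57BL/6-Tg(TRAMP)8247Ng/J and PWK/PhJ mice, bred from sires without the transgene and dams that carried it. Every tumour, in both sets, therefore carried the TRAMP transgene on a mixed background, and none received an agent. The study ended for an animal at 30 weeks or when a humane limit was met, and total RNA of the snap-frozen tissue was hybridised to 1 array per tumour. The labels give no age for a single animal, no grade and no batch, and they put all 27 tumours in 1 group. TRAMP mice express the early region of the virus SV40 under the probasin promoter, which is active in prostate epithelium, so these tumours model a disease driven by viral oncoproteins.

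The members were chosen by a measured value: a Hoxb3 level above 7 on the log2 scale of the deposited table. Hoxb3 was 8.50 in P500, 8.85 in P609, 8.90 in P803 and 9.20 in P569, with a mean of 8.86 ± 0.28 (SD, n = 4). In the other 23 tumours it lay between 5.06 and 6.08, with a median of 5.41. The tumour just inside the threshold was P500, and those just outside were P1469 at 6.08 and P233 at 6.05. These values made the split and are given as a description, with no test. They are log2 levels, on which a difference of 1 is a doubling, and low levels are close to the background of the arrays, where a difference is understated.

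Hox genes encode homeodomain transcription factors that set position along the body axis of the embryo, and in mammals they lie in 4 clusters, HoxA to HoxD. Within a cluster the genes sit in a row in the order in which they act from head to tail, and neighbouring genes are often switched on together, with Polycomb proteins, Trithorax proteins and retinoic acid among their regulators. The mouse HoxB cluster lies on chromosome 11 and runs from Hoxb1, the most anterior in action, to Hoxb9, with Hoxb13 standing apart at the posterior end. Hoxb13 is the member with a known role in the prostate, where it marks the epithelium and works with the androgen receptor.

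The RefSeq promoter table (GRCm38.p6; 250 bases before to 50 after each gene's start) held 3 of the 10 HoxB genes, Hoxb8, Hoxb4 and Hoxb1. They are shown because Hoxb8 and Hoxb4 were among the genes that differed between the sets and Hoxb1, from the same cluster, was not. Capitals mark the motif TGATNNAT, a site type bound by Hox proteins together with their Pbx partners, searched on both strands. The windows lie at chr11:96281655-96281954 for Hoxb8, chr11:96318017-96318316 for Hoxb4 and chr11:96365508-96365807 for Hoxb1, all on the plus strand.
Hoxb8: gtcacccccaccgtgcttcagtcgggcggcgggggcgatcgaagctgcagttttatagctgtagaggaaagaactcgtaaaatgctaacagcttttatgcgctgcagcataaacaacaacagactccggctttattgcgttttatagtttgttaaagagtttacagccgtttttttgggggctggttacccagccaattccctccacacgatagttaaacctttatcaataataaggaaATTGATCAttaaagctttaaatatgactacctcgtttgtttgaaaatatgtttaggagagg
Hoxb4: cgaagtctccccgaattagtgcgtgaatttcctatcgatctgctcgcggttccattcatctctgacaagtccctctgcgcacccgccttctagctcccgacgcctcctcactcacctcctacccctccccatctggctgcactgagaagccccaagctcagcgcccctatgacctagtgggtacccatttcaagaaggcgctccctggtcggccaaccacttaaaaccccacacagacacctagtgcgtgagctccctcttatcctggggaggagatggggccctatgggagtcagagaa
Hoxb1: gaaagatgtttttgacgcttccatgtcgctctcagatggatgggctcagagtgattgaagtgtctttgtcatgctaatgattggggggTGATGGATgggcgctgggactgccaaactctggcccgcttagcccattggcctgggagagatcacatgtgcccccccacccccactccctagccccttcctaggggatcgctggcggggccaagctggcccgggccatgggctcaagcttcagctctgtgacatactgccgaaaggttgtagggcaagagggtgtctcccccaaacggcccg
The motif began 11 bases before the start of Hoxb8 and 162 bases before that of Hoxb1, and the Hoxb4 window did not hold these letters. It occurs in 8.85% of the 32851 promoters of the table. The windows held 13 CpG pairs in Hoxb8, 14 in Hoxb4 and 10 in Hoxb1, where the median of all promoters was 7. The letters TATAAA were found in Hoxb8 (13.6% of all promoters) and CCAAT in Hoxb8 and Hoxb1 (37.4%), each searched on both strands. A match is a description of the letters and shows no binding.

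The cluster also holds the microRNA gene Mir196a-1, between Hoxb9 and Hoxb13. Its mature product is shown because miR-196 is a known repressor of Hox mRNAs, Hoxb8 among them. Capitals mark the seed, bases 2 to 8, and the sequence lies at chr11:96265187-96265208 on the plus strand (RefSeq, GRCm38.p6).
mmu-miR-196a-5p: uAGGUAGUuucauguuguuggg

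A stretch of the HoxB cluster from Hoxb4 to Hoxb9 was higher in the 4 Hoxb3-high tumours, and the genes at its ends, Hoxb1 and Hoxb13, were not. Across 22179 genes other than Hoxb3, limma called 39 genes higher (0.176%) and 2 lower (0.00902%) at a Benjamini-Hochberg adjusted p of 0.05, and 6 of the 39 were HoxB genes. Of the 9 HoxB genes measured besides Hoxb3, 6 were thus called higher, with a median difference over the 9 of 3.004 against -0.002 over all genes. As the tumours were picked by a gene of this same cluster, the count describes how far along the cluster the high level reached. All adjusted p-values below come from this fit.

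Hoxb5 and Hoxb4, the nearest genes to Hoxb3 in the order of gene starts in RefSeq, separated the sets without overlap. Hoxb5 was 8.80 in P500, 9.33 in P609, 9.33 in P803 and 9.83 in P569, against 5.71, 5.93 and 7.10 as the lowest, median and highest of the other 23. Its difference was 3.28 ± 0.18 (log2 ± SE, n = 4 and 23, adjusted p = 8.02e-13 in limma). Hoxb4, known for its role in the growth of blood stem cells, was 8.27, 6.65, 7.80 and 8.67 in P500, P609, P803 and P569, against 4.59 to 5.56 in the others (median 4.91). All 4 tumours lay above all 23 for both genes, and P609 was the lowest of the 4 for Hoxb4. The difference of Hoxb4 was 2.91 ± 0.20 (adjusted p = 1.49e-10 in limma). Only 9 of 22179 genes (0.0406%) lay above all others in each of the 4 tumours.

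Hoxb6 showed the largest difference of any gene tested. It was 8.94 in P500, 8.45 in P609, 9.74 in P803 and 10.26 in P569, against 4.39, 4.93 and 6.65 as the lowest, median and highest of the others, again without overlap. The difference was 4.33 ± 0.28, a 20.1-fold higher level (adjusted p = 2.64e-11 in limma). Hoxb7 was 6.99, 6.04, 8.01 and 8.33 in P500, P609, P803 and P569 and between 4.01 and 6.10 in the others (median 4.19). Here P609 lay just below the highest of the others, P1469. The difference of Hoxb7 was 3.004 ± 0.28 (adjusted p = 9.74e-08 in limma).

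Toward the posterior end, as in Hoxb7, the levels of the 4 tumours met those of 1 other tumour. Hoxb8 was 6.72 in P500, 7.61 in P609, 8.65 in P803 and 9.14 in P569, against 3.23, 3.92 and 7.69 as the lowest, median and highest of the others. Hoxb9 was 9.09, 8.92, 9.98 and 11.22 in the same order, against 5.52, 6.05 and 9.75. In both genes P1469 held the highest value of the others, above P500 and P609, and no other tumour of the 23 reached the lowest of the 4. The differences were 3.98 ± 0.46 for Hoxb8 (adjusted p = 1.15e-05 in limma) and 3.54 ± 0.45 for Hoxb9 (adjusted p = 5.18e-05 in limma).

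Hoxb2, the next gene toward Hoxb1, split the 4 tumours into pairs. It was 7.50 in P500 and 7.12 in P609, and 3.87 in P803 and 3.93 in P569, where the others ranged from 3.16 to 5.89 (median 3.47; highest in P233). Thus P500 and P609 lay above all 23, whereas P803 and P569 lay within their range and above their median. The difference of 1.95 ± 0.48 did not pass (adjusted p = 0.095 in limma), and it passed without P569 (2.51, adjusted p = 0.043) or without P233. Hoxb1, which acts in the hindbrain, was 5.59, 5.52, 5.79 and 5.71 in P500, P609, P803 and P569 and 5.45 to 5.96 in the others, a difference of -0.02 ± 0.09 (adjusted p = 0.986).

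At the other end of the cluster Hoxb13 did not follow. It was 8.87 in P500, 8.44 in P609, 6.35 in P803 and 5.61 in P569, against 4.47, 8.77 and 9.39 as the lowest, median and highest of the others. Only P500 exceeded the median of the others. The difference was -0.86 ± 0.75 (adjusted p = 0.937 in limma). Hoxb13 thus ran opposite to Hoxb9 within the 4 tumours, P803 and P569 holding the lower Hoxb13 and the higher Hoxb9.

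**Figure D1:**
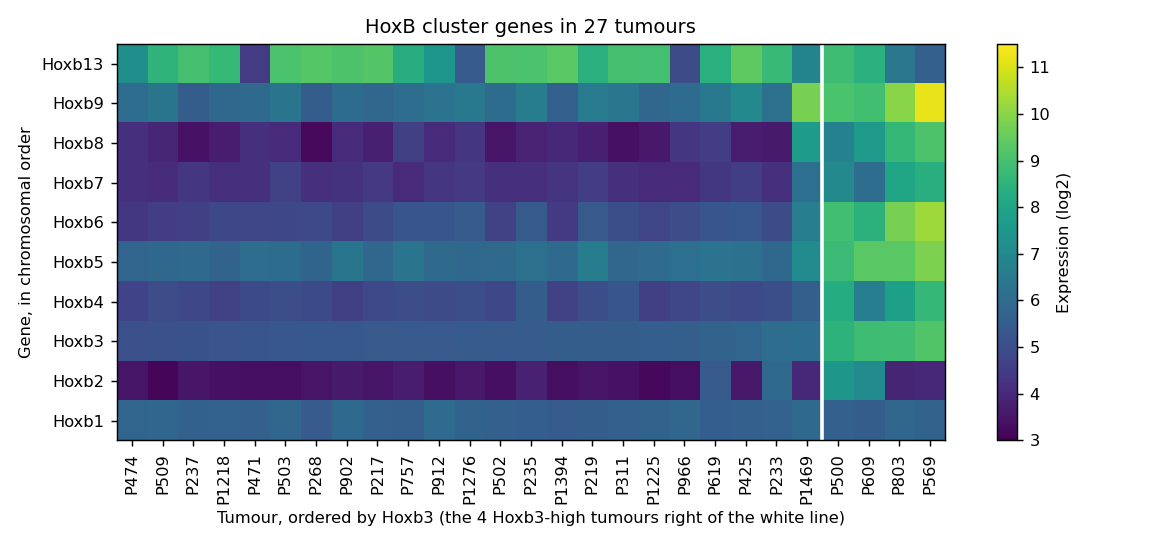
Expression (log2, colour scale) of each HoxB gene (rows, in chromosomal order) in each of the 27 tumours (columns, ordered by Hoxb3, with the 4 Hoxb3-high tumours right of the white line). Hoxb3 to Hoxb9 are bright in those 4, Hoxb2 is bright in P500 and P609 only among them, and P1469, the highest of the other 23 for Hoxb3 at 6.08, is bright for Hoxb9 at 9.75.

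Mir196a-1 was 7.02 in P500, 4.73 in P609, 4.88 in P803 and 4.52 in P569, against 4.10, 4.47 and 6.73 as the lowest, median and highest of the others. P500 alone stood above the 23. The difference of 0.65 ± 0.39 did not pass (adjusted p = 0.855 in limma). The array probes of this row may read the precursor or its host transcript, and the mature microRNA shown above was not measured. The predicted gene Gm53, its neighbour, was 8.02 in P500 and 5.51 to 5.72 in the other members, so P500 was set apart from them at both rows. The 23 others ranged from 5.30 to 8.52 for Gm53, so P500 lay within their range. P425 was the highest of the 23 at both rows.

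The 3 other Hox clusters showed no called gene. Of 26 genes measured in HoxA, HoxC and HoxD, 0 passed in either direction, none of them had an unadjusted p under 0.05, and their median difference was 0.07. All 9 HoxC genes were low in the members, with levels between 3.09 and 5.64 in the 4 tumours. Some HoxA genes were uneven: Hoxa9, which acts in posterior tissues and in blood progenitors, was 9.42 in P500, 9.09 in P803 and 8.55 in P569, and 5.14 in P609. The others ranged from 4.78 to 9.62 for Hoxa9, so the difference of 0.66 ± 0.82 (adjusted p = 0.950 in limma) was smaller than the spread. P609 was the lowest of the 4 for 7 of the 9 HoxA genes.

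Some HoxD genes, which pattern limbs and the genital tract, differed from one member to the next. Hoxd11 was 7.44 in P500, 6.40 in P609, 5.15 in P803 and 9.16 in P569, within the range of the others (4.91 to 9.60). Hoxd13 was 7.01 in P500 and 4.90 to 5.03 in the remaining members, with P500 above all 23 others (highest 6.83). Neither passed (differences of 0.68 ± 0.72 and 0.43 ± 0.34, adjusted p = 0.949 and 0.927 in limma). Other genes of these clusters were alike in the 4 members, such as Hoxa4 (5.57 to 5.82) and Hoxd12 (5.13 to 5.52), both within the range of the others.

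**Figure D2:**
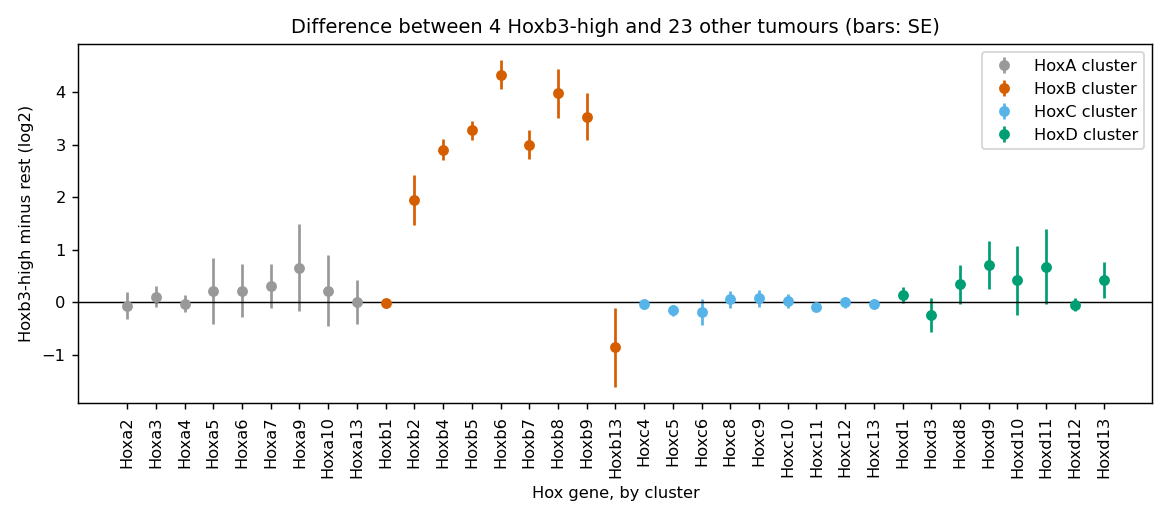
Difference in mean expression between the 4 Hoxb3-high tumours and the 23 others (log2, vertical axis; bars are SE of the limma fit) for the 35 Hox genes measured besides Hoxb3, ordered by cluster. Hoxb4 to Hoxb9 lie between 2.91 and 4.33, Hoxb2 lies at 1.95 with a wide bar, and the genes of the HoxA, HoxC and HoxD clusters lie around 0.

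Beyond the cluster, 1 neighbour on chromosome 11 was called higher. Among the 20 measured genes on each side of Hoxb3, 7 of 40 were called, and without the Hox genes 1 of 31, against 0.176% of all genes. Of the 31, 24 had a difference above 0, where 1007 of 1646 genes of chromosome 11 without Hox genes and 10988 of 22179 of all genes did. Their median difference was 0.20. The called gene was Skap1, an adaptor of T-cell receptor signalling that lies 5 measured genes from Hoxb3 on the Hoxb1 side. Skap1 was 6.15 in P500, 5.86 in P609, 6.71 in P803 and 7.59 in P569, against 5.19, 5.46 and 6.20 as the lowest, median and highest of the others. P803 and P569 lay above all 23. The difference was 1.04 ± 0.18 (adjusted p = 0.0087 in limma), and it no longer passed without P803 (adjusted p = 0.098) or without P569 (adjusted p = 0.185).

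T-cell transcripts moved little beside Skap1: of 9 T and NK cell genes 0 passed, their median difference was -0.09, and the score of the list lay between -0.14 and 0.01 in the 4 tumours and between -0.38 and 1.21 in the others. Cd3e, a chain of the T-cell receptor complex, was 5.13 to 5.53 in the 4 tumours and 4.88 to 6.85 in the others. The genes on either side of Skap1 did not pass: Gm11529 differed by 0.41 ± 0.12 (adjusted p = 0.214) and Snx11, a sorting nexin, by 0.54 ± 0.16 (adjusted p = 0.223). Over all of chromosome 11, without Hox genes, 3 of 1646 genes were called higher (0.182%), against 33 of 22170 over all genes without HoxB, and their median difference was 0.05. The called genes were Skap1, Krt10 and Car10.

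**Figure D3:**
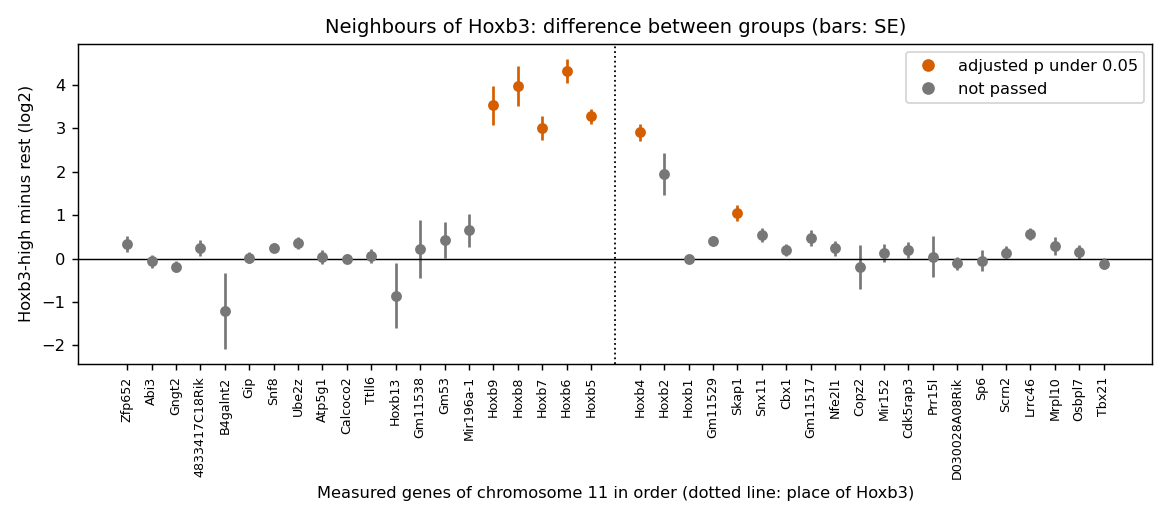
Difference between the 4 Hoxb3-high and the 23 other tumours (log2, vertical axis; bars are SE) for the 20 measured genes on each side of Hoxb3, in chromosomal order (horizontal axis; the dotted line is the place of Hoxb3). The 7 genes with an adjusted p under 0.05 are Hoxb4 to Hoxb9 and, on the far side of Hoxb1, Skap1 at 1.04.

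Outside the HoxB cluster, 33 genes were called higher and 2 were called lower. One of the 33 was Hs3st4, an enzyme that adds sulfate to heparan sulfate. It was 7.32 in P500, 8.38 in P609, 8.21 in P803 and 8.62 in P569, against 5.10, 5.52 and 8.56 as the lowest, median and highest of the others. P1469 was the only other tumour to reach the 4. The difference was 2.48 ± 0.35, a 5.58-fold higher level (adjusted p = 2.69e-04 in limma). Hs3st4 and Hoxb4 to Hoxb9 were the 7 genes called with each of the 4 tumours left out in turn.

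Receptors and signalling genes followed. Npy1r, a receptor of neuropeptide Y, was 5.67, 6.55, 8.71 and 7.31 in P500, P609, P803 and P569, against 4.03 to 6.95 in the others (median 4.76), a difference of 2.19 ± 0.37 (adjusted p = 0.0044 in limma). Unc5c, a netrin receptor that repels growing axons, was 6.31, 7.35, 7.70 and 7.34 against 5.02 to 7.08, with 1 other tumour, P474, above the lowest member (1.63 ± 0.27, adjusted p = 0.0037). Pde11a, a phosphodiesterase that breaks down cyclic nucleotides, was 5.92, 6.77, 8.66 and 8.003 against 4.75 to 6.62 (1.68 ± 0.28, adjusted p = 0.0043). In each of these 3 genes P803 was the highest and P500 the lowest of the 4. Castor2, a relative of the arginine sensor that acts on mTORC1, was 7.49, 8.02, 8.89 and 8.80 in P500, P609, P803 and P569, against 6.78 to 7.73 (1.04 ± 0.19, adjusted p = 0.013). None of these 4 genes passed without P803 (adjusted p from 0.074 to 0.262 in limma). Without P569, Pde11a and Castor2 did not pass either (adjusted p = 0.085 and 0.231), whereas Npy1r and Unc5c did (adjusted p = 0.043 and 0.033).

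Several of the steepest genes were carried by some of the 4 tumours only. Fstl5, a secreted follistatin-like protein, was 9.29 in P609, 9.32 in P803 and 8.64 in P569, and 4.71 in P500, against 4.01, 4.43 and 8.37 as the lowest, median and highest of the others. Kcnd2, a potassium channel subunit of neurons, was 8.72 in P609 and 8.81 in P569, 6.48 in P803 and 4.80 in P500, against 4.77 to 6.53. Iapp, a peptide hormone stored with insulin in pancreatic beta cells, was 8.07 in P803 and 9.64 in P569, and 3.77 and 3.53 in P500 and P609, against 3.06 to 5.96. Fstl5 was thus low in P500 alone, Kcnd2 was above the range of the others in P609 and P569, and Iapp was above it in P803 and P569. Their differences were 3.13 ± 0.65, 1.98 ± 0.40 and 2.86 ± 0.61 (adjusted p = 0.037, 0.028 and 0.043 in limma), and each lost its call without P803 or without P569 (adjusted p from 0.066 to 0.613). Fstl5 and Kcnd2 also lost it without P609 (adjusted p = 0.104 and 0.117).

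The remaining genes of the steepest 15 were Caln1, a calcium-binding protein of neurons (difference 2.51), Fam169a (2.09), Ttll7, which adds glutamate to tubulin (1.88), and Pla2g2f, a secreted phospholipase (1.82). Pla2g2f was 8.91 in P803 and 8.05 in P569, and 5.59 and 4.60 in P500 and P609, against 4.39 to 5.50 in the others. Genes with a smaller difference included the transcription factors Sox5 (1.21), Tal2 (0.64) and Pou3f4 (0.57), the nuclear envelope protein Syne1 (1.38) and the histone chaperones Nap1l2 (1.22) and Nap1l3 (0.65). All of these passed, with adjusted p from 0.010 to 0.049 in limma. Without P803 only Tal2 among them passed, and without P569 only Nap1l2. Of the alternatives in which they were tested, Iapp was not called in 24 of 36, Fam169a and Pla2g2f in 21 of 36, Ttll7 in 18 of 37 and Fstl5 in 16 of 36. Unc5c, Castor2 and the genes of smaller difference named here were picked with their values in view.

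The 2 genes called lower were Crnde and Cbln1. Crnde, a long noncoding RNA that lies beside Irx5, was 6.81 in P500, 5.802 in P609, 5.95 in P803 and 6.38 in P569, against 6.55, 7.62 and 8.89 as the lowest, median and highest of the others. Cbln1, a secreted organiser of synapses, was 7.02, 6.18, 5.99 and 5.64 against 6.57 to 8.44 (median 7.61). In both genes P609, P803 and P569 lay below all 23, and P500 within their range. The differences were -1.48 ± 0.32 and -1.32 ± 0.27 (adjusted p = 0.045 and 0.037 in limma), and neither passed without any one of P609, P803 and P569, or without some of the other 23. The Iroquois factor Irx5 itself differed by -1.24 ± 0.29 and did not pass (adjusted p = 0.073), with 7.86 in P500, 6.21 in P609, 6.93 in P803 and 6.89 in P569 against 7.37 to 9.73.

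The next genes by p on the lower side did not pass. They included Tgfb2, a growth factor (-2.24 ± 0.57, adjusted p = 0.112), the caveola component Cavin3 (-1.32 ± 0.33, adjusted p = 0.107) and the tight junction protein Tjp1 (-0.61 ± 0.16, adjusted p = 0.157). Tgfb2 was 7.37 in P500, 7.88 in P609, 6.18 in P803 and 5.89 in P569, against 5.86, 9.09 and 10.51 as the lowest, median and highest of the others. All 4 lay below that median without leaving the range. Apol9a and Fzd2 were the 2 genes (0.00902% of all genes) below all others in every member, and neither passed (adjusted p = 0.634 and 0.241). Fzd2, a Wnt receptor, was 4.45 to 5.15 in the 4 tumours and 5.34 to 8.29 in the others.

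**Figure D4:**
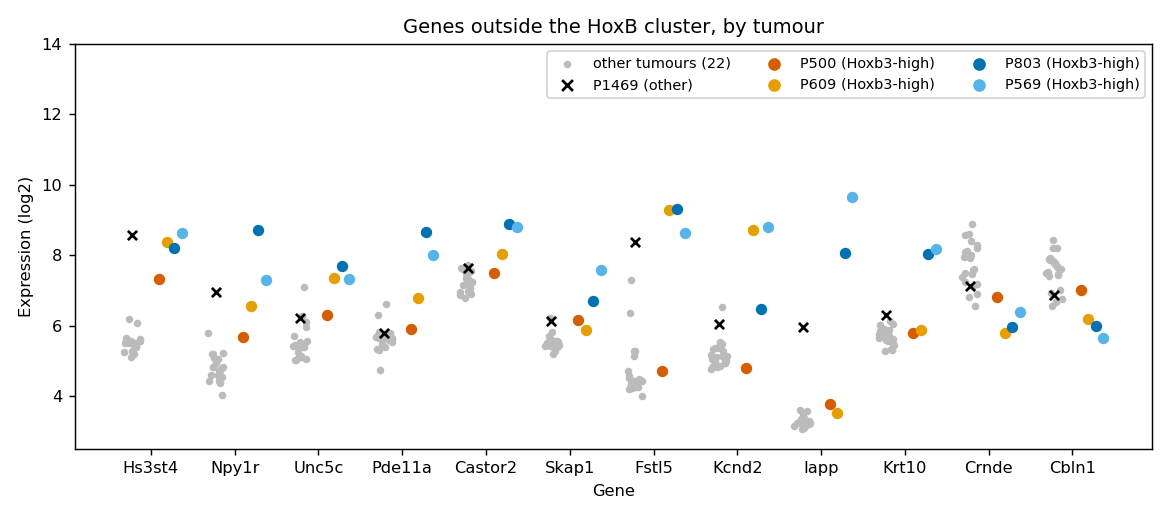
Expression (log2, vertical axis) of 12 genes outside the HoxB cluster in the 4 Hoxb3-high tumours (coloured points), in P1469 (cross) and in the remaining 22 tumours (grey points). P1469 sits with the 4 for Hs3st4 at 8.56, and of the 4 only P803 and P569 are high for Iapp. For Crnde and Cbln1, P609, P803 and P569 lie below all the others, and P500 lies within their range.

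The 4 tumours were not alike in other respects, and they fell into pairs by their epithelial genes. The luminal list, of keratins, junction proteins and epithelial factors, had a score of -0.75 in P500 and -1.08 in P609, and of 1.89 in P803 and 2.02 in P569, where the others ranged from -1.45 to 2.81 (median -0.86). A score is the mean over a list of each gene's log2 level minus its mean in the 27 tumours. Krt8, a keratin of luminal cells, was 7.36, 7.36, 11.71 and 11.68 in P500, P609, P803 and P569, and Dsp, a desmosome protein, was 5.28, 5.74, 10.41 and 10.25. P803 and P569 exceeded both P500 and P609 in 16 of the 18 luminal genes, which 24.96% of all genes did. In tissue RNA, fewer cells of a type and less RNA per cell cannot be told apart.

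The calls outside HoxB moved with that pairing. P803 and P569 were the 2 highest members for 22 of the 33 genes, against 24.97% of all genes. Without P803 the count of genes called higher was 9 and without P569 it was 15, whereas it was 116 without P500 and 123 without P609. Among the 8 tumours with a luminal score above 1 (2 members, 6 others) the 33 genes had a median difference of 2.06, and among the 19 at or below 1 (2 members, 17 others) of 0.67. The 33 genes were picked on these same 4 tumours, so their sign is largely set by that choice, and whether the sets differ was not tested. Hoxb4 to Hoxb7 passed in both sets, and Hoxb8, Hoxb9 and Hs3st4 reached the threshold only at or below 1 (adjusted p above 1: 0.272, 0.319 and 0.404 in limma). Their differences above 1 were no smaller but less precise: 4.24 ± 0.94, 3.66 ± 0.92 and 2.47 ± 0.81. At or below 1 they were 3.33 ± 0.28, 2.98 ± 0.22 and 2.30 ± 0.23. The 6 others above 1 include P1469, with 7.69, 9.75 and 8.56 for these genes. Hoxb2 differed by 3.62 ± 0.51 at or below 1 (adjusted p = 0.0013) and by 0.36 ± 0.18 above 1 (adjusted p = 0.556). With the luminal score as a covariate over all 27 tumours, 52 genes were called higher, 38 of the 39 among them.

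P1469, the other tumour with the highest Hoxb3, shared much of the pattern. It was the highest of the 23 for 26 of the 39 genes called higher, 20 of them outside HoxB, while it was the highest for 8.30% of all genes. Its luminal score was 1.94. Over all genes P1469 was the array most like P803 (r = 0.969, across genes) and P569 (r = 0.971), while P500 was most like P237 (r = 0.981) and P609 most like P233 (r = 0.973), none of them a member. Genes are not independent replicates, and these r serve to rank the arrays. Without P1469 the count of genes called higher was 102, with all 39 among them.

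The tumours were checked against markers of the labelled tissue and of other cells. The neuroendocrine list of secretory granule and neuronal genes had scores of 0.68, 0.63, 0.62 and 0.27 in P500, P609, P803 and P569, within the range of the others (-3.00 to 0.73, median 0.36). Chga, a granule protein, was 10.19, 9.53, 11.55 and 10.89, against 5.91, 9.97 and 11.33. Of the 16 genes 0 passed, 14 had a difference above 0 and the median difference was 0.66. These differences are taken from the mean of the 23, of which 4 had a neuroendocrine score at or below -1, which lowers that mean. Against the median score of the others, 0.36, P500, P609 and P803 lay above and P569 below. Pcsk1, a convertase of peptide hormones, was 8.96, 8.94, 12.08 and 11.59 against 4.99 to 11.06, with a difference of 3.27 ± 0.86 that did not pass (adjusted p = 0.135 in limma). The androgen-responsive and secretory list had 0 called of 12 genes, a median difference of -0.05 and scores of -0.07, 0.29, -0.41 and -0.06 in P500, P609, P803 and P569, against -0.86, -0.43 and 3.61 as the lowest, median and highest of the others. Pbsn, probasin, was 3.46, 3.64, 3.45 and 5.51 against 3.35, 3.58 and 8.70. Single members exceeded the other members for some genes of the list, picked with their values in view, and none lay above the range of the 23. Just below the range lay Spink1 in P500 (3.90, lowest of the others 3.99) and Fkbp5 in P803 (7.40, lowest 7.41). The protease Tmprss2 was 10.07 in P803 (median of the 23 other tumours 5.98, highest 11.08). The transglutaminase Tgm4 was 8.95 in P569 (median 5.49, highest 11.33). Sbp, a secreted binding protein, was 8.11 in P609 (median 5.57, highest 10.41).

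Of the 28 lists examined, 26 had no called gene, and in 22 of the 27 lists other than HoxB all 4 scores lay within the range of the other tumours. Of 21 neuroendocrine transcription factors 1 was called, Pou3f4, and the list's median difference was 0.07. Pou3f4 was 4.05, 4.75, 4.63 and 4.72 in P500, P609, P803 and P569 against 3.73 to 4.38, a small difference at a low level. Neurog3, the factor that starts endocrine cells of the pancreas, was 10.55 in P803 and 5.45 to 5.83 in the other members, with a difference of 1.24 ± 0.57 that did not pass (adjusted p = 0.681). Foxa2, a factor of endoderm, was 7.72, 7.91, 10.11 and 9.33 against 6.52 to 9.70 (1.14 ± 0.48, adjusted p = 0.599). Of the 21 genes 13 had a difference above 0, and others went down, such as Isl1 (-1.09 ± 0.66, adjusted p = 0.861 in limma).

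Genes known to act with or upstream of Hox clusters showed no call. Of the 8 cofactors of the Pbx, Meis and Pknox families 0 passed, the largest difference being that of Pknox1 (0.65 ± 0.23, adjusted p = 0.445 in limma). Of the 17 regulators, which include Polycomb and Trithorax genes and Ctcf, 0 passed, with a median difference of 0.03. Cbx7 and Bmi1, both of Polycomb complexes, differed by 0.25 ± 0.28 and -0.21 ± 0.16. Of the 16 genes of the retinoic acid pathway 0 passed, with a median difference of -0.15. Aldh1a2, which makes retinoic acid, was 10.89 in P803 and 5.04 to 5.84 in the other members, against 4.17 to 6.44 in the 23, so that 1 member alone stood above the others.

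In 5 lists besides HoxB, 1 or 2 members had a score outside the range of the others. The macrophage score was -1.28 in P803, where the lowest of the others was -0.62, and -0.37 to 0.24 in the other members. Cd68, a lysosomal protein of macrophages, was 7.18 in P803 and 7.96 to 8.33 in the other members, and its difference of -0.77 ± 0.27 did not pass (adjusted p = 0.425 in limma). The mitosis score was 0.51 in P500, above the 0.34 that was highest in the others, and -0.34 to -0.01 in the other members. The mesenchymal score was -0.37 in P803 and -0.36 in P569, below the lowest of the others at -0.29, and the HoxD score was 0.87 in P569, above the highest at 0.81.

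For the 3 Y-linked genes the score was -3.10 in P569, below the lowest of the others (-2.05, in P966), and 0.05 to 1.04 in the other members, P500 lying above the highest of the others at 0.85. Kdm5d, a histone demethylase on the Y chromosome, was 8.84, 8.17, 7.48 and 4.63 in P500, P609, P803 and P569, against 5.75 to 8.71. Eif2s3y, a translation factor, was 9.60, 8.87, 9.04 and 5.86 against 6.96 to 9.68. Xist, the RNA that silences an X chromosome in females, was 5.36 in P569 and 4.05 to 4.37 in the other members, against 4.01 to 4.96. These Xist levels all lay below the median of 5.79 of all rows, where levels are close to background. Uty, the third Y-linked gene, was 9.61, 8.34, 8.57 and 5.14 against 4.78 to 9.33, so that P569 lay within the range of the others, above P1469. The animals are labelled as males. Without P569, 12 of the 39 genes called higher kept their call, and without P803, whose Y-linked score was 0.05, 8 did. Whether the Y-linked levels bear on the calls was not tested.

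**Figure D5:**
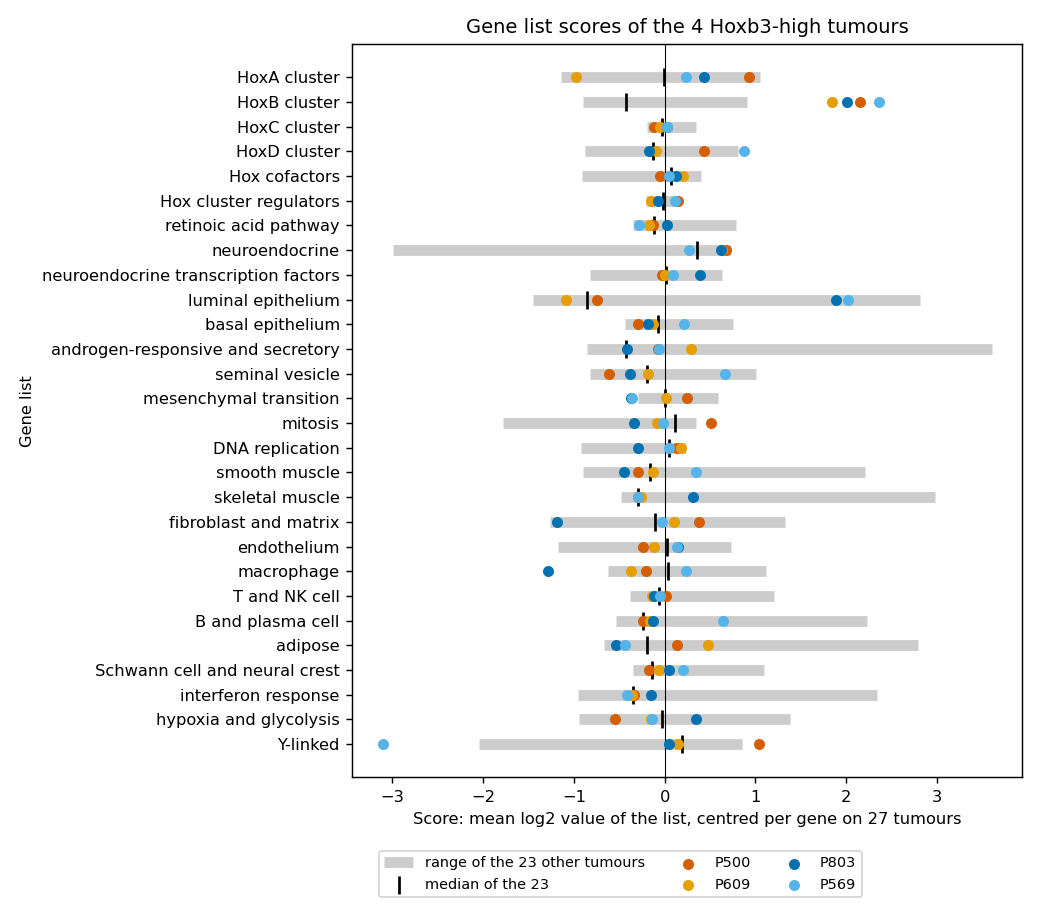
Score of each of the 28 gene lists (horizontal axis: mean log2 level of the list, centred per gene on the 27 tumours) in the 4 Hoxb3-high tumours (coloured points), over the range (grey bar) and median (black mark) of the 23 others. The HoxB list stands clear of the bar in all 4, from 1.85 to 2.36 against a highest of 0.91, the luminal list splits the 4 into pairs, and P569 lies at -3.10 for the Y-linked genes.

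Within the 23 other tumours Hoxb3 ranged only from 5.06 to 6.08, mostly below the median of 5.79 of all rows, where levels are close to background and their order is unsure. These are the values that placed the 23 below the threshold, and the part of background in the relations was not tested. The relation of Hoxb3 to the 9 other HoxB genes and Skap1 was tested there by Pearson's r and Spearman's rho, two-sided with 100000 permutations, 10 relations adjusted by Benjamini-Hochberg. Hoxb6 had r = 0.650 (permutation p = 0.0013, adjusted 0.011) and rho = 0.591 (permutation p = 0.0037, adjusted 0.037), and r = 0.585 without P1469 and P233, the tumours farthest from the median of Hoxb3. Hoxb9 had r = 0.620 (permutation p = 0.0021, adjusted 0.011) with rho = 0.454 (adjusted 0.078), and r = 0.486 without those tumours. Hoxb5 had r = 0.550 (permutation p = 0.0090, adjusted 0.023) with rho = 0.474 (adjusted 0.078) and r = 0.475 without them. For these 3 genes r stayed positive without P1469 and P233, and rho passed the adjustment for Hoxb6 alone.

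For Hoxb2 (r = 0.631, permutation p = 0.0041, adjusted 0.014) and Hoxb7 (r = 0.522, permutation p = 0.022, adjusted 0.044) the rank measure did not pass (rho = 0.353 and 0.193, adjusted 0.198 and 0.538). Without P1469 and P233 their r was 0.413 and 0.240. Hoxb8 did not pass (r = 0.460, adjusted permutation p = 0.068, rho = 0.081, adjusted 0.801), and its r was 0.070 without those tumours. Hoxb1 (r = 0.036) and Hoxb13 (r = 0.003) showed no relation that passed, nor did Hoxb4 (r = 0.441, adjusted permutation p = 0.059) and Skap1 (r = 0.354, adjusted permutation p = 0.117). The 10 genes whose pattern over the 27 tumours was most like that of Hoxb3, ranked by Pearson's r, were Hoxb5, Hoxb6, Hoxb4, Hoxb7, Hoxb8, Hoxb9, Hs3st4, Npy1r, Skap1 and Pde11a. All 10 were also called higher in the fit. As the tumours fall into separate sets by Hoxb3, this ranking largely follows the difference between the sets, and no pooled r is given.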

How the data were processed

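Total RNA from 27 tumours was measured on 1 biotin-labelled array each. The deposited values are log2 expression levels made by the authors with Partek, per the submitters' processing notes. Of its version, background correction, summarisation and normalization the sources used here say nothing, and what that normalization removed cannot be seen. The table held 41345 rows from 1.68 to 14.5. Array medians lay between 5.67 and 5.82, and arrays correlated at 0.891 to 0.986. The number of arrays limits the precision.

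A single gene symbol was paired with 23521 rows, several with 1814 and none with 16010. Each of 22180 genes was read from its row of highest mean (1082 had several rows), 22139 of them found in RefSeq (GRCm38.p6), which gave gene order and sequences. Rows with several symbols, 1 of which names Hoxb3 and Hoxb2, were not used. As the array's genome build is not stated in these sources, gene coordinates are printed for RefSeq sequences only.

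Tumours were split by a script at a Hoxb3 level of 7 (log2), 4 against 23. Genes were fitted with limma 3.58.1 (lmFit, eBayes with a trend) in R 4.3.3, adjusted by Benjamini-Hochberg over 22179 genes at 0.05, and the fit was tested on simulated data. The members, the 28 lists (300 of 323 genes measured) and the tests were chosen with earlier results of these data known. Named are the Hox genes, the 5 nearest measured genes on each side of Hoxb3, the 15 steepest called genes per direction (on the lower side filled up by p), 2 members per list and the 10 genes most like Hoxb3; others were chosen after their values were seen. Alternatives were quantile normalization, centring, a filter on dim genes, no variance trend, mean rows, Hoxb3 as a continuous level, a neuroendocrine score above -1, the luminal score as a covariate and each tumour left out. Fits within luminal scores above and at or below 1 were added after seeing the data.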

Additional observations from a re-analysis of the deposited data

Results flagged for a closer look

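Dixon's criterion for the gap over the range of 4 values was applied to 110 genes, those named by the rules given above. Other genes of the text and of the lists were not put to it. In 11 of the 110 genes, 1 of the 4 Hoxb3-high tumours lay far from the other 3. Chance alone gives this in about 5% of groups. In P609, Hoxa3 was low at 4.599 (5.37 to 5.49 in the other members) and Hoxc9 was high at 5.364 (4.94 to 4.97). In P803, Hoxc12 was high at 5.554 (5.34 to 5.36), Aldh1a2 at 10.89 (5.04 to 5.84) and Neurog3 at 10.55 (5.45 to 5.83), and Ano6, a membrane scramblase and ion channel, was low at 6.525 (8.21 to 8.37). In P500, Hoxd13 was high at 7.006 (4.90 to 5.03) and Fstl5 was low at 4.706 (8.64 to 9.32). In P569, the keratin Krt17 was high at 9.776 (5.51 to 5.99), as was the receptor Erbb3 at 7.89 (5.87 to 6.11), and the interferon-induced Usp18 was low at 5.795 (7.18 to 7.33). The gaps of Hoxc9 and Hoxc12 are below 0.5 log2 units at levels near background.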

How the results depend on the processing

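No named value that was called changed sign in the 37 alternatives, and Hoxb4, Hoxb5, Hoxb6 and Hoxb7 were called in every setting in which they were tested. Of the 90 named genes not called, 45 changed sign in at least 1 setting and 14 were called in at least 1. The count of genes called higher (39) was 14 with dim genes left out, 86 with Hoxb3 as a continuous level and 12 at a luminal score at or below 1, and it ranged from 9 (without P803) to 123 (without P609) with 1 tumour left out. Of the 39, all were shared with quantile normalization and centring, 20 with the 23 tumours of neuroendocrine score above -1 and 8 without P803. All were also shared with the continuous level, which uses the Hoxb3 values that made the split and so is no separate check. The count called lower (2) was 1 with dim genes left out, 5 with the continuous level, 7 with a neuroendocrine score above -1, 6 with the luminal covariate, 1 at a luminal score above 1 and 0 at or below 1, and 0 to 10 with 1 tumour left out. Called Hox genes (6) numbered 2 with dim genes left out, where HoxB genes of low mean were not tested, and 6 to 7 with 1 tumour left out. Called neighbours (7) numbered 2 with dim genes left out and 4 at a luminal score above 1, and 6 to 9 with 1 tumour left out. Where no construction shows it, the cause was not tested. The median of all genes moved by at most 0.03 under any setting. No paired analysis was possible because the labels give 1 group. With 4 members, differences carried by 1 or 2 of them depend on those tumours, and values near background have no order.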
